A study of Mus musculus with 8 samples.

Results

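The AGPAT family of 6 genes, *Agpat1*, *Agpat2*, *Agpat3*, *Agpat4*, *Agpat5* and *Lclat1*, was examined in liver RNA of *Agpat3* knockout (KO) and wild-type (WT) mice. Members were taken as every non-control probe whose transcript identifier belongs to 1 of these genes in the mouse RefSeq gene table. This gave 12 of the 56605 probes on the array, and 6 of the 22911 genes that could be named. Livers came from male C57BL/6 mice at 10 weeks of age, 4 *Agpat3* WT and 4 *Agpat3* KO, and the Cy3-labeled RNA of each mouse was hybridized to its own one-color Agilent array. The knockout is global, so the gene is lost in every tissue and not in the liver alone. Which exons the allele lacks, relative to the array probes, is not given in the sources used here.

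The enzymes of this family add a fatty acid to a lysophospholipid. AGPAT1 to AGPAT5 carry the name 1-acylglycerol-3-phosphate acyltransferase for the step from lysophosphatidic acid (LPA) to phosphatidic acid (PA), the precursor from which both triglycerides and the membrane phospholipids are built. AGPAT3 accepts docosahexaenoic acid (DHA) readily and is the member best known for placing DHA in phospholipids. AGPAT2 is a major form in liver and adipose tissue, and its loss causes generalized lipodystrophy in people and mice. LCLAT1 acts on lysocardiolipin and on other lysophospholipids.

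The 8 arrays shared 1 slide and 1 scan, and since WT filled row 1 and KO row 2, the effect of a row and that of the genotype cannot be told apart. Between 52.8% and 56.3% of probes were well above background on an array, and 0 spots were saturated. Values below are the log2 of the processed spot intensity minus the 75th percentile of the array, so 0 stands for the signal of a probe at that percentile. A probe was tested with limma if, in WT or in KO, each of the 4 arrays scored it well above background, and it was called when it passed a fold change of 1.5 with an adjusted p (Benjamini-Hochberg) under 0.2. A probe's brightness also depends on its sequence, so a difference in level between probes does not give the relative amounts of their RNAs. The 11 hepatocyte markers, among them albumin and apolipoprotein B, were all well above background on every array, and none passed the test (median log2 fold change -0.05).

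*Agpat3*, the targeted gene, was nearly lost from KO liver by both of its probes. Its brighter probe (A_55_P2152592) read 5.65, 5.66, 5.80 and 5.88 in WT 1 to 4, against -0.48, 0.02, -0.58 and -0.47 in KO 1 to 4. Every KO mouse lay far below every WT mouse, and the mice of each genotype lay close together. The group means were 5.75 ± 0.11 and -0.38 ± 0.27 (SD over the 4 mice), which differ by a log2 fold change of -6.12 (standard error, SE, 0.14, 95% interval -6.43 to -5.81, limma adjusted p = 4.46e-07). The KO signal was 1.43% of the WT signal. The dimmer probe (A_52_P523569) read 3.56, 3.56, 3.68 and 3.58 in WT and -1.96, -1.95, -2.45 and -2.04 in KO. Its groups did not overlap either, with a log2 fold change of -5.69 (SE 0.12, 95% interval -5.96 to -5.43, limma adjusted p = 4.46e-07) and a KO signal of 1.93% of WT. The exact permutation test over the 70 assignments of mice to genotypes gave p = 0.0286 for each probe (two-sided), the smallest value that 4 against 4 mice allow. In all 8 mice the *Agpat3* signal fell on the side its genotype label gives. Among the 29067 tested probes these were the 2 lowest log2 fold changes. Beyond the genotype, sex, strain and age given above, nothing in the labels says more of the mice than that each is a separate sample. These p-values thus measure the spread between the samples given.

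The loss was not complete on the array. On the linear scale the brighter probe had an intensity of 14187 to 17219 on the WT arrays and of 196 to 281 on the KO arrays. The KO signals were still 11.5 to 17.9 times the dimmest probe scored as well above background on the same array, and 49.6 to 77.1 times the median of the negative control spots. For the dimmer probe the intensity was 3123 to 3962 in WT and 53.9 to 76.7 in KO, or 3.48 to 4.56 times the dimmest probe above background. Both probes were scored well above background on all 4 KO arrays. The source of this remaining signal was not tested.

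**Figure D1:**
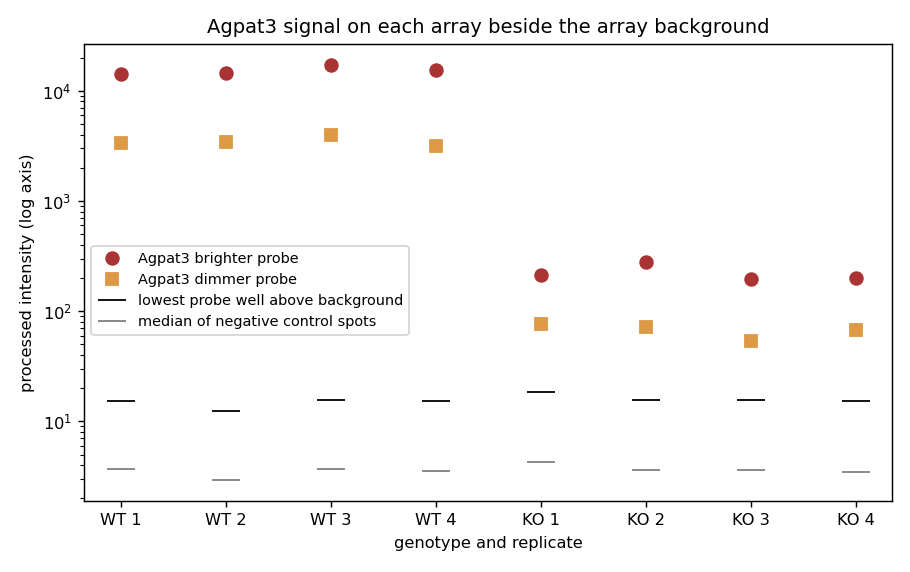
Processed intensity (log axis) of the brighter *Agpat3* probe (circles) and the dimmer one (squares) on each of the 8 arrays, with 2 levels of the same array as lines, the dimmest probe scored well above background and the median of the negative control spots. On the 4 KO arrays the brighter probe sits between 196 and 281 and the dimmer one between 53.9 and 76.7, far below WT and above both lines.

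The fall of the 2 *Agpat3* probes was compared within each array. The brighter probe exceeded the dimmer one by 2.09, 2.09, 2.12 and 2.30 log2 units in the WT livers and by 1.48, 1.97, 1.87 and 1.57 in the KO livers. The groups did not overlap, and the gap was 0.43 log2 units narrower in KO by the group means (exact permutation test, two-sided, p = 0.0286, not adjusted and the smallest that this design allows). With Benjamini-Hochberg adjustment over all 6 members, *Agpat4* included, this permutation p was 0.171. Under normexp background correction the log2 fold changes of the probes were -5.77 and -4.73. That setting adds a constant of 50 to every signal, which by itself lessens the fall of a dim probe more than that of a bright one. The size of the narrowing therefore depends on the processing, and the part of background in it was not tested. The same was computed for the 5 members with both probes tested. In *Agpat1*, *Agpat2*, *Agpat5* and *Lclat1* the gap overlapped between genotypes, with exact permutation p of 0.286 or more. That test does not use the replicate numbers, which WT and KO mice share. Set side by side by number, the gap was wider in KO at every number for *Agpat1*. It was narrower at every number for *Agpat2* and *Lclat1*, and *Agpat5* went both ways. The differences of the group means were 0.16, -0.04 and -0.15 in *Agpat1*, *Agpat2* and *Lclat1*. A shift in 1 direction by number was thus not particular to *Agpat3*. *Agpat4* is not described here because its dimmer probe was at background level.

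The promoter of *Agpat3* is printed because this is the gene that was lost, beside those of *Gpam*, the gene around phosphatidic acid whose change is described below. The windows run from 250 bases before to 50 after the annotated start site in RefSeq (GRCm38.p6), 5′ to 3′ on the strand of the gene. Capitals mark matches to a motif on either strand.
Agpat3 chr10:78351651-78351950 (-): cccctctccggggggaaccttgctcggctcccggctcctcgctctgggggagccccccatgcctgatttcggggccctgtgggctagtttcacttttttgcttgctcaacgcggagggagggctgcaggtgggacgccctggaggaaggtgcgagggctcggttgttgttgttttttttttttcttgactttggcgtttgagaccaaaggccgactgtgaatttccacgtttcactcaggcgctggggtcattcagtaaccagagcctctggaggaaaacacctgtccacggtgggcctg
Gpam chr19:55099428-55099727 (-): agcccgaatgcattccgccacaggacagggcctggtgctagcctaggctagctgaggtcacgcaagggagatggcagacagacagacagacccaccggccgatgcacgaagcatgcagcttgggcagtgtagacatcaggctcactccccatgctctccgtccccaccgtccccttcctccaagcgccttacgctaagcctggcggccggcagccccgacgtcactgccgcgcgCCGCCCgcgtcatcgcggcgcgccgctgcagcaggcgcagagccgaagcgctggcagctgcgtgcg
Gpam chr19:55127189-55127488 (-): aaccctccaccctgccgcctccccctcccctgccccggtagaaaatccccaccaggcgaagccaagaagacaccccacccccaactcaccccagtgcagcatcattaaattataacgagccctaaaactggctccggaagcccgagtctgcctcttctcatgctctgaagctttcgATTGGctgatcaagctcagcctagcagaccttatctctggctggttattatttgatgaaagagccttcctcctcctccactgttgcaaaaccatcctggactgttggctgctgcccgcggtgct
Each motif was searched on both strands in all 32851 mouse promoter windows. The sterol regulatory element was written TCACNCCAC, and 1.24% of windows hold it. For the E-box the letters were CACGTG, which 7.15% of windows hold. The GC box was taken as GGGCGG, found in 35.7% of windows. For the TATA box TATAAA was used, found in 13.6%. The last motif was CCAAT, which 37.4% hold. None of the 5 motifs was found in the *Agpat3* window. The first *Gpam* window held 1 GC box on the reverse strand at position -16 from the start site, and the second held 1 CCAAT on the reverse strand at -74. Among the other members with a window, that of *Agpat2* held 3 GC boxes, the first 2 overlapping by 1 base, and had the highest GC content of the members, 72% against a median of 52.7% over all windows. Each of the 2 windows of *Agpat1* held 1 GC box, and 1 of them also held 1 CCAAT. The *Agpat4* window held 2 CCAAT and that of *Lclat1* 1 GC box and 1 CCAAT. A match only describes these letters.

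None of the other 5 members passed the test. *Agpat3* was thus the 1 called gene of 6, against 1.76% of the 14065 tested genes in the whole series. Its call follows from the design, which removes this gene, so only the other 5 members can be set against the shares given here. By probe, 2 of the 11 tested probes were called, both of *Agpat3*, against 1.67% of the 29067 tested probes (0.939% higher and 0.726% lower). The same 2 probes had groups that did not overlap, against 8.85% of all probes (3.69% with KO above WT and 5.16% with KO below). Of the 9 tested probes of the other 5 genes, limma called 0 and 1 had an unadjusted p under 0.05, where 13.3% of all tested probes did. The methods' t-test also called 0 of the 9.

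*Agpat1* and *Agpat2* encode the enzymes of the endoplasmic reticulum that make phosphatidic acid for lipid synthesis. *Agpat2* had the highest log2 fold change among the brighter probes of the members, and it did not pass the test. Its brighter probe (A_55_P1970810) read 7.39, 7.32, 7.10 and 7.17 in WT and 7.48, 7.36, 7.34 and 7.41 in KO. The highest value was that of a KO mouse, and WT 1 lay within the KO range, so the groups overlapped. The log2 fold change was 0.15 (SE 0.08, 95% interval -0.04 to 0.34, limma adjusted p = 0.484), and the exact permutation test gave p = 0.114. The interval spans 0.975-fold to 1.27-fold. The dimmer probe gave 4.07, 3.94, 3.75 and 3.72 in WT and 4.18, 4.02, 4.00 and 4.05 in KO. WT 1 again lay among the KO mice and the other WT mice below them, with a log2 fold change of 0.19 (95% interval -0.02 to 0.41, limma adjusted p = 0.433). Over the 8 arrays, after the mean of each genotype was taken out, the 2 probes of *Agpat2* had a correlation of 0.95, which describes probes that share every hybridization.

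*Agpat1* was read by 2 probes listed for different transcripts of the gene. The brighter one (A_55_P2055107) gave 0.33, 0.32, 0.44 and -0.09 in WT and 0.06, 0.24, 0.34 and 0.10 in KO. The WT mice spanned the whole KO range, and the log2 fold change was -0.06 (95% interval -0.35 to 0.22, limma adjusted p = 0.867). The dimmer one (A_51_P322612) gave -1.96, -2.26, -2.35 and -1.96 in WT and -2.34, -2.43, -2.67 and -1.97 in KO. These overlapped too, with a log2 fold change of -0.22 (95% interval -0.59 to 0.15, limma adjusted p = 0.610). After the genotype means were taken out, the 2 probes had a correlation of -0.65 over the 8 arrays, so they did not rank the mice alike.

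*Agpat4* and *Agpat5* encode members that have been placed at mitochondria, the first of them best known from brain. The brighter *Agpat4* probe (A_51_P346165) read -0.23, 0.20, 0.05 and -0.09 in WT and -0.42, -0.29, -0.23 and -0.20 in KO. The KO mice were in the lower part, and WT mouse 1 lay among them. The log2 fold change was -0.26 (SE 0.10, 95% interval -0.50 to -0.03, which is 0.707-fold to 0.982-fold). The unadjusted limma p of 0.0332 became 0.324 after adjustment over all tested probes, and the exact permutation p was 0.0857. The dimmer *Agpat4* probe (A_55_P2484924) had intensities between 4.05 and 16.7 and was well above background on 1 WT array and on 0 KO arrays. It was not tested, and *Agpat4* rests on 1 probe here.

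*Agpat5* had the narrowest interval of the difference, which held 0. Its brighter probe (A_52_P572447) gave 1.54, 1.41, 1.49 and 1.48 in WT and 1.37, 1.54, 1.61 and 1.43 in KO. The KO mice lay on both sides of the WT mice, and the log2 fold change was 0.01 (95% interval -0.16 to 0.18, limma adjusted p = 0.973). This interval spans 0.894-fold to 1.13-fold. The dimmer probe (A_51_P361286) ranged from -3.30 to -2.34 in WT and from -3.13 to -2.42 in KO, with a log2 fold change of 0.06 and a wider 95% interval of -0.45 to 0.57 (limma adjusted p = 0.936).

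The interval of *Lclat1* was nearly as narrow and held 0 too. Its brighter probe (A_52_P299358) gave 1.95, 2.08, 1.91 and 2.06 in WT and 1.98, 1.93, 2.14 and 2.01 in KO. The genotypes interleaved, with a log2 fold change of 0.01 (95% interval -0.16 to 0.19, or 0.896-fold to 1.14-fold; limma adjusted p = 0.954). The dimmer probe (A_52_P606287) ranged from -2.79 to -2.34 in WT and from -2.55 to -2.18 in KO, with a log2 fold change of 0.16 (95% interval -0.13 to 0.45, limma adjusted p = 0.640). Both brighter probes were among the steadier ones on the arrays, with a residual standard deviation of 0.0844 for *Agpat5* and 0.0872 for *Lclat1*, against a median of 0.171 over all tested probes.

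**Figure D2:**
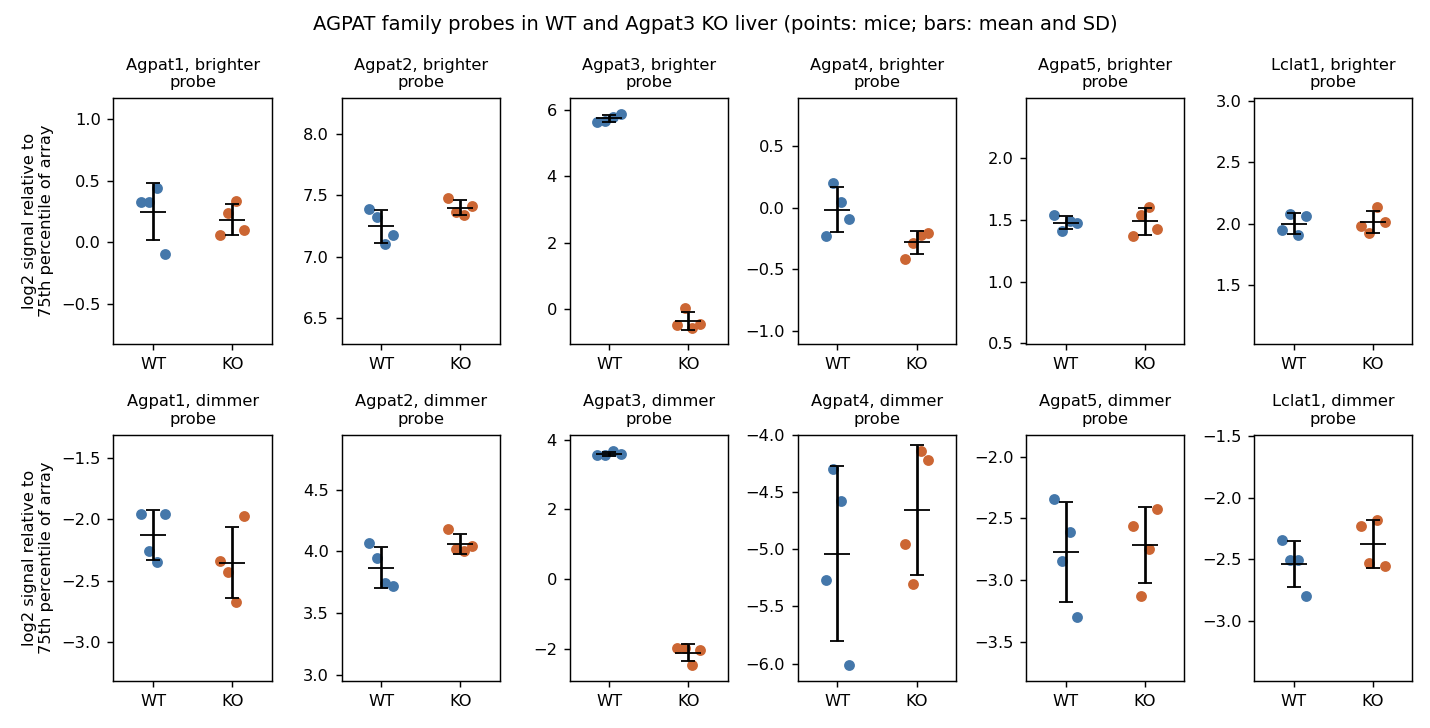
Log2 signal, with the array's 75th percentile at 0, for the 12 probes of the 6 members, brighter probe above and dimmer probe below, with 1 point per mouse (4 WT, 4 KO) and bars for mean and SD. Each panel has its own axis; the *Agpat3* panels span several log2 units with the genotypes far apart, while in the other 10 panels the WT and KO points overlap.

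Of these 9 probes of the other 5 members, the 95% intervals of 8 lay inside 1.5-fold in both directions. The exception was the dimmer *Agpat1* probe, whose lower limit was 0.665-fold. One of the 9 intervals, that of the brighter *Agpat4* probe, did not hold 0 before adjustment.

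**Figure D3:**
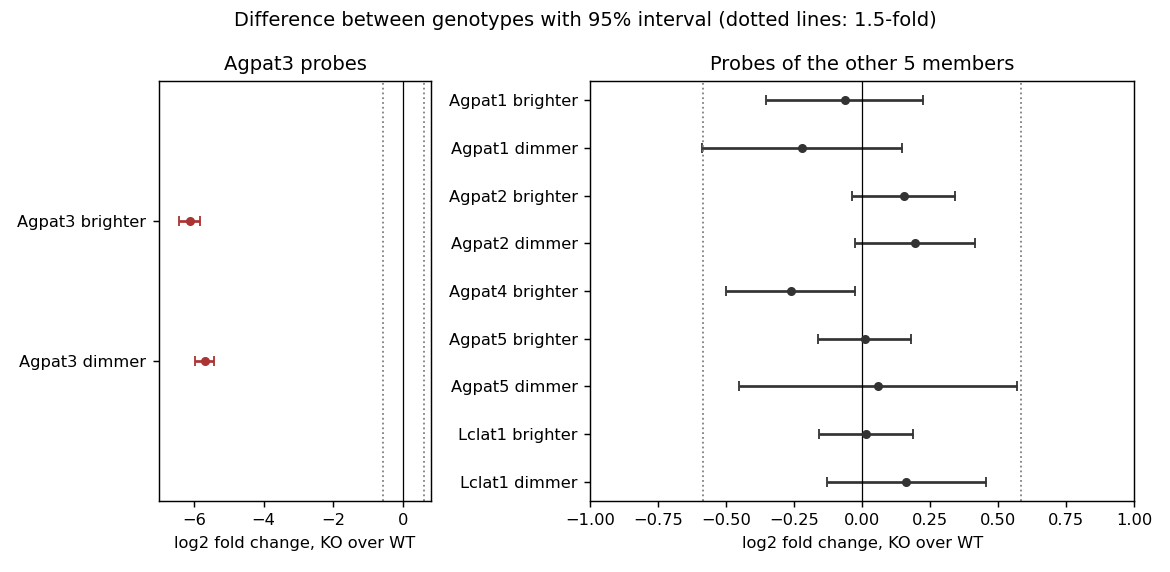
Log2 fold change (KO over WT) with its 95% interval for the 11 tested probes, the 2 of *Agpat3* on the left and the 9 of the other 5 members on the right on a narrower axis. Dotted lines mark 1.5-fold; the *Agpat3* points lie at -6.12 and -5.69, and 8 of the 9 other intervals stay within the lines.

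Around this family the genes that supply LPA, make PA by other routes, use PA or acylate other lysophospholipids were described from 4 lists. Of the 36 tested genes in the 4 lists, 1 was called higher and 1 lower, with a median log2 fold change of 0.05. Over all 14065 tested genes, 1.01% were called higher and 0.754% lower, and the median was -0.03. All 9 genes that supply LPA were tested, and their median was 0.13. The 1 that rose was *Gpam*, the mitochondrial glycerol-3-phosphate acyltransferase, which makes the LPA that AGPAT enzymes then acylate. Its brighter probe read 4.79, 5.26, 5.15 and 5.39 in WT and 5.99, 6.34, 6.37 and 6.16 in KO. All KO mice lay above all WT mice, with a log2 fold change of 1.07 (SE 0.14, limma adjusted p = 0.0283), or 2.10-fold. The second *Gpam* probe also passed, reading -2.01, -1.66, -1.81 and -0.89 in WT and -0.41, 0.26, 0.49 and -0.02 in KO. Its log2 fold change was 1.67 (SE 0.27, limma adjusted p = 0.0496), and its groups did not overlap. At the other end of this list, *Gpat4*, a glycerol-3-phosphate acyltransferase of the endoplasmic reticulum, had a log2 fold change of -0.29 (limma adjusted p = 0.350). By limma 3 of the 9 genes, *Gpam*, *Gpat2* and *Gpat4*, had an unadjusted p under 0.05, where 13.3% of all tested probes did. *Gpat2*, named after its value was seen, had a log2 fold change of -0.25 (limma adjusted p = 0.275). All its KO values lay below all its WT values, as in 5.16% of all probes.

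Phosphatidic acid also arises from diacylglycerol through the diacylglycerol kinases and from phosphatidylcholine through phospholipase D. Of these 12 genes 8 were tested, with a median log2 fold change of -0.01, and 4 were not above background on any array by their brightest probe. *Dgkh*, the kinase isoform eta, read -1.76, -1.96, -1.59 and -1.52 in WT and -2.82, -2.39, -2.40 and -1.94 in KO. It was called lower, at a log2 fold change of -0.68 (SE 0.18, limma adjusted p = 0.173), although KO mouse 4 lay within the WT range and the exact permutation p was 0.0571. Its second tested probe did not pass (log2 fold change -0.27, limma adjusted p = 0.485), and the call was lost in 11 of 19 other settings, among them the mean of its probes and 7 of the 8 fits without 1 mouse. The highest value of the list was that of *Pld1*, a phospholipase D, with a log2 fold change of 0.17.

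Of the 14 genes that use PA, the lipins and lipid phosphate phosphatases that lead to diacylglycerol and the enzymes that lead to cardiolipin and phosphatidylinositol, 13 were tested and limma called 0, with 1 at an unadjusted p under 0.05 (*Cds2*, chosen after its value was seen, log2 fold change 0.20, adjusted p = 0.280) and 0 called by the methods' t-test. The median was 0.06, from -0.10 in *Plpp2*, a lipid phosphate phosphatase, to 0.44 in *Lpin2*, a phosphatidate phosphatase (limma adjusted p = 0.480). Of the lysophospholipid acyltransferases outside the family, 10 had a probe and 6 were tested. Limma called 0 of them, with 1 at an unadjusted p under 0.05, and the methods' t-test called 0. That 1 was *Lpcat3*, which puts arachidonic acid into phospholipids, with a log2 fold change of 0.35 (limma adjusted p = 0.295). The lowest was *Lpcat2* at -0.14. Limma called 1.76% of all tested genes, and 13.3% of all tested probes had an unadjusted p under 0.05. At such shares 0 called among 13 or among 6 genes says little about either list.

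**Figure D4:**
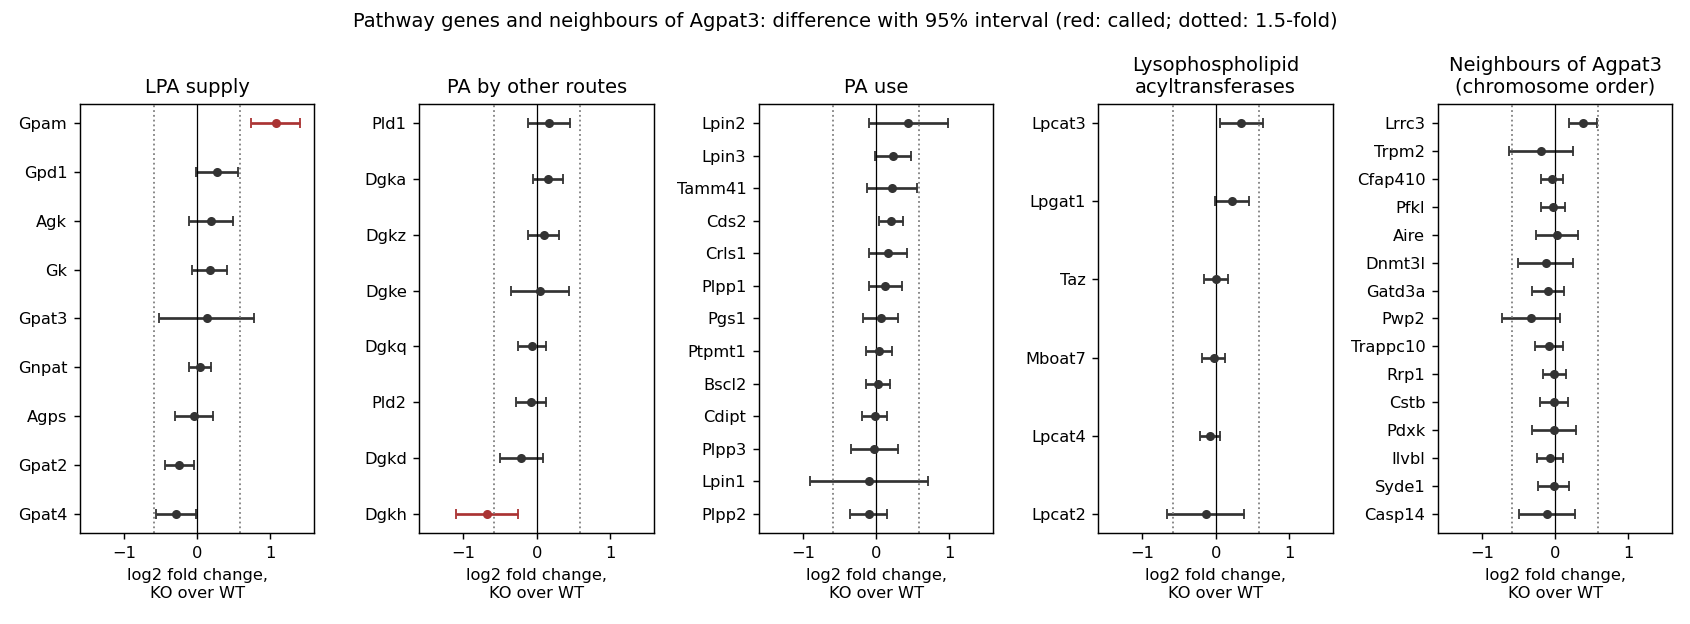
Log2 fold change (KO over WT) with 95% interval for the 36 tested genes of the 4 lists, 1 panel each, and in the last panel for the 15 tested neighbours of *Agpat3* in chromosome order. Red marks called genes and dotted lines 1.5-fold; *Gpam* at 1.07 and *Dgkh* at -0.68 are the only red points.

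Genes beside *Agpat3* on chromosome 10 were read to see whether the change reached past the targeted gene. Of the 10 named genes with a probe on each side, 15 of 20 were tested, and limma called 0, with 1 at an unadjusted p under 0.05 and 0 called by the methods' t-test. Limma called 1.76% of all tested genes, and 13.3% of all tested probes had an unadjusted p under 0.05. At such shares 0 called among 15 genes says little. The median log2 fold change of these neighbours was -0.04, from -0.33 to 0.38. On one side *Trappc10*, *Pwp2*, *Gatd3a* and *Dnmt3l* had log2 fold changes of -0.08, -0.33, -0.10 and -0.13, and *Icosl* was not tested. On the other side *Rrp1*, *Cstb*, *Pdxk*, *Ilvbl* and *Syde1* had -0.01, -0.02, -0.01, -0.07 and -0.02. *Pwp2*, a factor of ribosome assembly, read 2.91, 2.53, 2.60 and 2.14 in WT and 2.50, 2.22, 1.96 and 2.16 in KO, which overlap (limma adjusted p = 0.461). *Lrrc3*, the farthest of the 10 on the side of *Trappc10*, was named after its value was seen. It read -0.47, -0.45, -0.58 and -0.76 in WT and -0.15, -0.25, -0.19 and -0.13 in KO. Its groups did not overlap, with KO above WT, as in 3.69% of all probes. The log2 fold change of 0.38 (limma adjusted p = 0.110) was under the minimum fold change.

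The genes whose pattern over the 8 arrays came nearest to that of *Agpat3*, by the root mean square difference of log2 signals set to the WT mean, were *Obp2a*, *Capn8* and *Wfdc12*, at 2.08, 2.82 and 2.85 log2 units among 14064 genes. As they were chosen for this likeness, their values are given without a test. *Obp2a*, which encodes an odorant-binding protein of the lipocalin family, read -1.99, -3.01, -2.99 and -1.49 in WT. On the KO arrays it was never scored well above background, so only a bound of at least 3.40-fold lower can be given, set by the dimmest probe above background. Under normexp background correction its fitted log2 fold change was only -0.73, in a setting that adds a constant of 50 to every signal. The size of this difference thus depends on the processing. *Capn8*, a calpain protease, ranged from -2.51 to -1.08 in WT and from -5.88 to -3.00 in KO, and was well above background on 2 of the 4 KO arrays. *Wfdc12*, also at background level in all 4 KO mice, was at least 1.62-fold lower in them by the same kind of bound. Under normexp its fitted log2 fold change was -0.39, a smaller difference than that bound. The added constant by itself brings the fold change of a dim probe nearer to 0, so the normexp values cannot check the bounds. Those given here for *Obp2a* and *Wfdc12* were computed only under the main background handling.

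Markers of other cells that a liver sample can hold were read beside these results, since in whole tissue fewer cells of a type and less RNA per cell cannot be told apart. Of 52 tested markers in 8 lists, hepatocytes included, limma and the methods' t-test called 0, where limma called 1.76% of all tested genes. By limma 7 of them (13.5%) had an unadjusted p under 0.05, where 13.3% of all tested probes did. With these 7 named after their values were seen, *Lrat* and *Acta2* had log2 fold changes of 0.50 and 0.19, and *Hnf4a*, *Alas2*, *Pdgfrb*, *Cela1* and *Sox9* of -0.33, -0.40, -0.45, -0.54 and -0.64, with limma adjusted p from 0.272 to 0.373. The groups of *Pdgfrb* and *Cela1* did not overlap, with KO below WT, as in 5.16% of all probes. The sums that follow add the linear signals of a list's tested probes, so the brightest probes weigh most. The summed signal of the 11 hepatocyte markers was 12.68 to 12.83 on the log2 scale in WT and 12.65 to 12.74 in KO. For the 9 stellate cell markers it was 6.71 to 7.12 in WT and 6.70 to 6.79 in KO, with 66.8% to 78.1% of it from *Dcn*. The log2 fold changes of single stellate markers ranged more widely, from -0.95 to 0.50. For the 10 Kupffer cell and leukocyte markers the sum was 6.23 to 6.55 and 6.03 to 6.54, and single markers ranged from -0.89 to 0.07. For the 7 endothelial markers it was 6.36 to 6.43 and 6.24 to 6.47. Of the 8 markers of adipocytes, cells rich in *Agpat2*, 4 were tested, 3 were not above background on any array, and the sum was 8.92 to 8.98 in WT and 8.65 to 8.96 in KO. Between 98.3% and 98.9% of that sum came from the probe of *Car3* alone, and the defining markers *Adipoq*, *Plin1*, *Cfd* and *Retn* did not pass the filter on dim probes. Of the 9 pancreatic acinar markers 4 were not above background on any array, and the sum of the 5 tested was 5.45 to 5.82 in WT and 4.83 to 5.46 in KO, with 64.8% to 80.3% of it from *Cela1*. The 3 tested cholangiocyte markers summed to 2.44 to 3.26 in WT and 2.46 to 3.00 in KO, with 77.6% to 89.4% from *Spp1*. The 3 erythroid ones summed to 7.88 to 8.19 and 7.38 to 8.15, with 75.9% to 83.6% from *Hba-a1*. The part of these cells in the results above was not tested.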

How the data were processed

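Liver RNA of 4 WT and 4 KO mice was measured on 8 one-color arrays. The authors deposited the output of Feature Extraction 10.7.1.1 for each array, in which the processed signal of a spot is a linear intensity after background correction, and a table of log2 values. The deposited log2 values were checked against the intensities and equal their log2 minus the 75th percentile of the array to within 0.00849. Control spots and outlier spots were dropped, and repeated spots of 1 probe were averaged.

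Of 56605 probes, 29067 scored well above background throughout WT, throughout KO or in both were fitted with limma 3.58.1 (lmFit, eBayes, R 4.3.3). P-values were two-sided, with Benjamini-Hochberg adjustment over all of these probes. The thresholds were taken from the study, whose legend leaves it unsaid if p was adjusted. Single probes also had the exact permutation test. There is no depth on an array, and 4 mice per genotype and, for dim probes, the signal over background set the precision. Where 0 arrays of a group were well above background, a bound replaced the fold change. It set the mean of the other group against the dimmest probe above background of each array, or the probe's own value if that was higher.

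The files hold no gene symbols. Transcript identifiers matched 1 symbol of the RefSeq table of GRCm38.p6 for 32994 probes, none matched several, and 23611 were unnamed. The scanner output names another build, so the table gave names and gene order only, and promoter windows carry the coordinates of GRCm38.p6. A gene in a list was read from its brightest tested probe. RNA of related genes with similar sequence can bind the same probe, which was not tested.

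Named genes were every member, the called genes and the highest and lowest of each pathway list, the 5 nearest genes with a probe on each side of *Agpat3*, and the 3 nearest in pattern. Members, lists and alternatives were chosen with earlier results of these data known. The alternatives were normexp with an offset of 50 (on the median spot signal, as the files used hold no mean signal), quantile and median normalization, the deposited values, other filters and thresholds, outlier spots kept, trend and robust eBayes, a replicate block, the methods' t-test with Benjamini-Hochberg adjustment, the mean over a gene's probes, and each array left out. Figures were drawn with matplotlib 3.10.9 in Python 3.11.15.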

Additional observations from a re-analysis of the deposited data

Results flagged for a closer look

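Among 64 sets of 4 mice (the WT or the KO values of each named probe), 5 held a mouse set apart from the other 3 by more than Dixon's 95% critical value for 4 samples, and chance marks about 1 in 20 sets. Of the 24 sets of family probes 1 was marked. The dimmer *Agpat3* probe read 3.68 in WT mouse 3 and 3.56 to 3.58 in the other WT mice, which is a small gap within a tight group. *Gpat4* read 5.70 in KO mouse 3 and 5.65 to 5.66 in the others. *Lpcat3* read 5.78 in WT mouse 4 and 5.28 to 5.35 in the others. *Lpcat2* read -1.88 in KO mouse 1 and -1.05 to -0.99 in the others. *Obp2a* read -4.29 in KO mouse 4 and -6.36 to -6.18 in the others, on arrays where it was not well above background.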

How the results depend on the processing

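*Agpat3* was called lower in all 19 alternatives, with log2 fold changes from -6.26 to -5.77 for the brighter probe (least under normexp) and from -5.74 to -4.73 for the dimmer one in 18. Without 1 mouse the brighter probe lay between -6.26 and -6.05. In all 21 alternatives 0 of the other 5 members was called. *Agpat1* lay between -0.18 and -0.0019, *Agpat2* between 0.10 and 0.20, and *Agpat4* between -0.33 and -0.19 (adjusted p 0.248 to 0.633), over settings and mice left out. *Agpat5* and *Lclat1* lie so near 0 that their sign turned: *Agpat5* gave -0.023 under normexp, -0.028 under median centering and -0.031 to 0.048 without 1 mouse, and *Lclat1* -0.023 under median centering and -0.027 to 0.043 without 1 mouse. Their dimmer probes gave -0.041 and -0.0024 under normexp, and that of *Agpat5* -0.12 to 0.20 without 1 mouse. *Gpam* was called in all 19 (0.95 to 1.37). The count of list genes called lower, 1 (*Dgkh*), became 0 under normexp, with no filter on dim probes, by the methods' t-test, by the mean of probes and at an adjusted p of 0.05. Without 1 mouse it was 0 to 1, and *Dgkh* passed then only without KO mouse 4. Of the genes picked for likeness to *Agpat3*, which lie near background in KO, normexp gave fitted log2 fold changes of -0.73 for *Obp2a*, -0.79 for *Capn8* and -0.39 for *Wfdc12*, nearer to 0 than in the main setting. With no minimum fold change 1 neighbor of *Agpat3* was called.

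Neighbors near 0 also turned. Under normexp *Trappc10* was 0.0057, *Rrp1* 0.0046 and *Cstb* 0.019, and under quantile normalization *Cstb* was 0.0035. Without 1 mouse *Syde1* ran from -0.068 to 0.060, *Cstb* from -0.074 to 0.013, *Pdxk* from -0.10 to 0.055, *Rrp1* from -0.043 to 0.021 and *Dnmt3l* from -0.28 to 0.0013. *Lpcat2*, a gene of the lysophospholipid acyltransferase list and not a neighbor, ran from -0.25 to 0.080. The cause of these changes was not tested.

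The counts over all probes, 273 higher and 211 lower, became 180 and 65 under normexp, 122 and 131 with no filter, 165 and 104 by the methods' t-test, 82 and 35 at an adjusted p of 0.05, and 557 and 645 with no minimum fold change. With probes above background on all 8 arrays only, 125 were lower. Without 1 mouse they ran from 152 (WT mouse 3) to 334 higher and from 105 (WT mouse 3) to 311 lower, with 110 lower without WT mouse 2 and 109 without KO mouse 2. WT and KO mice share replicate numbers, and the labels do not say that equal numbers belong together. Their deviations from the group means correlated at 0.33, -0.11, 0.10 and 0.32 for numbers 1 to 4. Between unlike numbers the correlations ran from -0.27 to 0.27, so those of numbers 1 and 4 were the highest between any WT and KO mouse. These values do not settle whether the number carries a shared effect, and the main fit left it out. With the number as a replicate block *Agpat3* stayed at -6.12 (adjusted p = 0.000876), 0 other members were called, and the counts were 327 higher and 265 lower.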
